A study of Mus musculus with 6 samples.

Results

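The genes of 10 clade B serpins, Serpinb1a, Serpinb2, Serpinb3a, Serpinb5, Serpinb6a, Serpinb6b, Serpinb8, Serpinb9, Serpinb11 and Serpinb12, were followed in mouse skin RNA on single-channel Affymetrix arrays. A probe set, the group of short probes that reads 1 transcript, was taken as a member if the platform annotation gave it 1 of these symbols and no other. By that rule 17 of the 45101 probe sets on the array were members, and all 10 genes had at least 1, among 18193 genes with a probe set of their own. The groups were 3 arrays of skin from mice labelled Knock-in (genotype KA, source KAB6), and 3 of skin from mice labelled WT, all with C57BL/6 as the strain background. The labels name neither the gene that was changed nor a promoter, and give no sex, age, body site or treatment. Nothing in them says that the 3 arrays of a group came from separate mice, so a p-value here reflects array-to-array spread that may be technical.

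Serpins are protease inhibitors that offer an exposed loop as bait: an inhibitory serpin is cleaved there, snaps into a new shape and traps the protease for good. Members of clade B mostly lack a classical secretion signal and work inside cells or after release from them. In skin they are best known from keratinocytes, where they meet proteases of the barrier, and from leukocytes, where they shield the cell from the proteases it carries.

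Of the 17 member probe sets, 3 rose and 5 fell in knock-in skin, and 9 did not pass the threshold (limma, Benjamini-Hochberg adjusted p under 0.05 over all 45037 non-control probe sets). Over all those probe sets 13.8% passed, 6.01% as higher and 7.81% as lower. Of those calls 43.5% were higher, and 66.2% were when each array was centred on its median. Many of all probe sets are dim. In a fit of only the 19431 probe sets above the array median on all 6 arrays, 29.6% passed, and 8 of 11 member probe sets. By gene, Serpinb1a, Serpinb2 and Serpinb3a had a probe set that rose, Serpinb5, Serpinb8 and Serpinb11 had one that fell, and Serpinb6a, Serpinb6b, Serpinb9 and Serpinb12 had none that passed. Of all 18193 genes, 10.2% had a probe set that rose and 11.9% one that fell. The median log2 difference was 0.09 over the 17 member probe sets and -0.05 over all probe sets. The groups did not overlap for 5 member probe sets that were higher and 5 that were lower, where 13.1% and 19.6% of all probe sets showed this (32.7% in either direction). An unadjusted p under 0.05 was reached by 10 of the 17, and by 27.7% of all probe sets. Signals are in the linear units of the deposited table. Each difference subtracts the wild-type mean of log2(signal + 16) and is followed by its standard error.

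**Figure D1:**
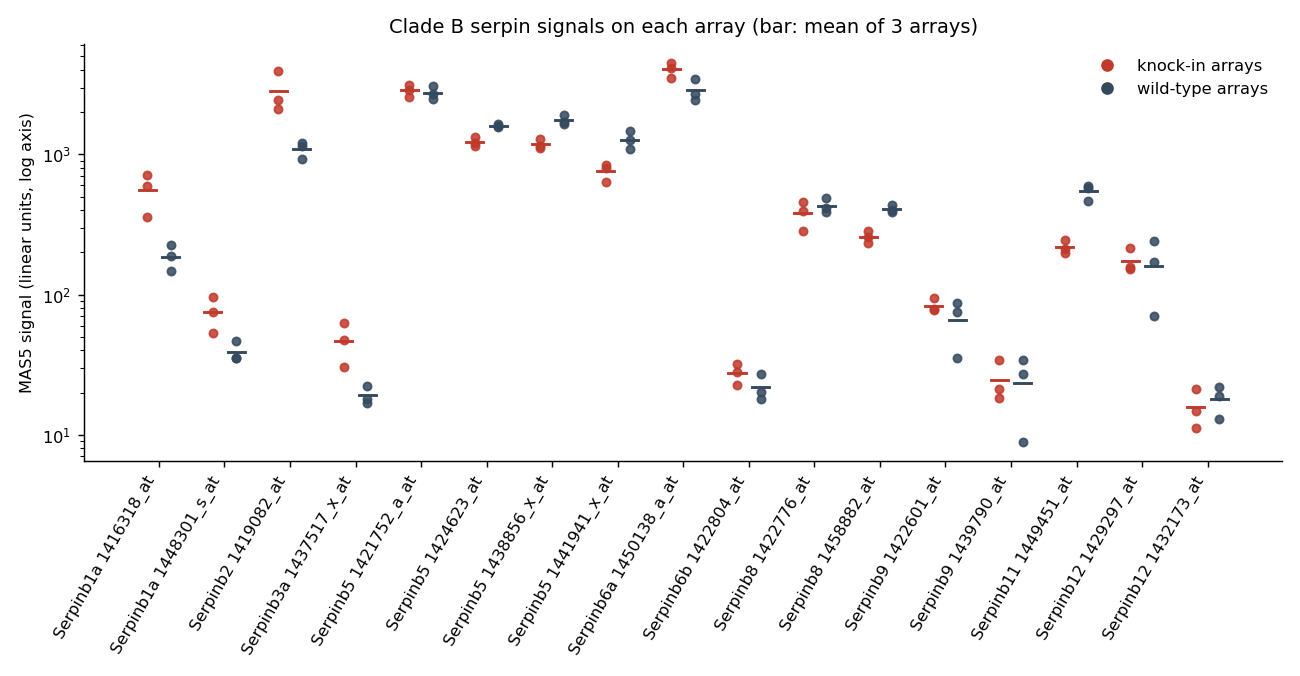
The MAS5 signal (linear units on a log axis) of each of the 17 member probe sets is plotted for each array, with knock-in points left of wild-type points and a bar at the mean of 3 arrays. Serpinb2, for example, lies between 2094 and 3951 in knock-in and between 923 and 1211 in wild-type, while Serpinb6b, Serpinb9 and Serpinb12 overlap between the groups.

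Sequence at the start sites gives the setting of these genes. RefSeq promoter windows of assembly GRCm38.p6 ran from 250 bases before a gene's start to 50 after it. Windows were matched by symbol for 9 of the 10 genes, all but Serpinb1a. They were searched on both strands for the AP-1 letters TGANTCA, the STAT letters TTCNNNGAA, the TATA box TATAAA and the NF-kB motif. AP-1 is the Fos and Jun factor, STAT factors carry cytokine signals, and NF-kB answers inflammatory receptors. In TGANTCA the N is any base, so this search was wider than the AP-1 core TGAGTCA. The windows below are shown because these 5 genes passed the threshold in opposite directions while 4 of them match TGANTCA. Capitals mark AP-1, STAT and TATA matches, and each window runs 5′ to 3′ on the gene's own strand.
Serpinb2, chr1:107511173-107511472, plus strand: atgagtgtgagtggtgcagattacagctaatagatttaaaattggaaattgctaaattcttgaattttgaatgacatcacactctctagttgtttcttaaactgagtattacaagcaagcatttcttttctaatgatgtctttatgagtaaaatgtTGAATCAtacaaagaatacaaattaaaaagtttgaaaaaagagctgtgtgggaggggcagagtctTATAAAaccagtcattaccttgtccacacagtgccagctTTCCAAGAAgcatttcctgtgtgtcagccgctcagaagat
Serpinb3a, chr1:107052254-107052553, minus strand: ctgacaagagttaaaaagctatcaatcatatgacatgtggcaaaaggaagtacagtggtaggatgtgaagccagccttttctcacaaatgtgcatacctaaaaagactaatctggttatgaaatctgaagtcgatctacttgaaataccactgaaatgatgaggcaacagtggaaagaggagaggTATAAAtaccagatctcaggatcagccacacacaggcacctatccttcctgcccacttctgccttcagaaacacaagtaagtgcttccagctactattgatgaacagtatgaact
Serpinb5, chr1:106860925-106861224, plus strand: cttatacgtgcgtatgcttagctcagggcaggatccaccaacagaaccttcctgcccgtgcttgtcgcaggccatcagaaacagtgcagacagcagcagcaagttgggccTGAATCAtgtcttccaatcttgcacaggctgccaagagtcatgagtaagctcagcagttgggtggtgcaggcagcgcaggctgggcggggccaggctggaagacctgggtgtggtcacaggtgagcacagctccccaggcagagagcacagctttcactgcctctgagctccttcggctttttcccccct
Serpinb8, chr1:107589756-107590055, plus strand: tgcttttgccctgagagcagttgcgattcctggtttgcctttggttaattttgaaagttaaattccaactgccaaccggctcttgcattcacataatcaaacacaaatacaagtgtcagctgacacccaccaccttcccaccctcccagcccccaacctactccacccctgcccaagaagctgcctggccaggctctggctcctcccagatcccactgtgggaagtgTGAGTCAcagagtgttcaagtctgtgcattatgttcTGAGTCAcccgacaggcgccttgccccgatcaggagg
Serpinb11, chr1:107362064-107362363, plus strand: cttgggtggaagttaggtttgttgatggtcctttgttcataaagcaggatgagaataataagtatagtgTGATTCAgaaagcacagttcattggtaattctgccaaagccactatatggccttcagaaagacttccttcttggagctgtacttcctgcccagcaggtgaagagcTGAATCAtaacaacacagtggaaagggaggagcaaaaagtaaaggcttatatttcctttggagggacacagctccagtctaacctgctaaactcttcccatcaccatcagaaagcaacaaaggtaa

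The AP-1 letters stood in windows of 5 of the 9 genes searched (Serpinb2, Serpinb5, Serpinb8, Serpinb11 and Serpinb12), against 7.81% of 32851 windows of 300 bases. Those 5 genes include 1 that rose, 3 with a probe set that fell and 1 that did not pass. All 5 are related genes in the same cluster on chromosome 1, so they are not independent draws from all windows. Serpinb3a on chromosome 1 had no match, nor had Serpinb6a, Serpinb6b and Serpinb9 on chromosome 13. In Serpinb2 they began 94 bases before the start, with TATA letters 29 bases before it. Of the 5 genes only Serpinb8 held the AP-1 core TGAGTCA, on both sides of its start. The matches in Serpinb2 and Serpinb5 read TGAATCA, that in Serpinb12 read TGATTCA, and Serpinb11 held both of these. TGATTCA is TGAATCA read on the opposite strand, so these are the same letters and not separate variants. They differ from the core. The STAT letters were in windows of Serpinb2 and Serpinb6a (8.3% of all windows) and the NF-kB motif in 0 of the 9 genes (8.46% of all windows). TATA letters were in windows of 3 of the 9 genes, Serpinb2, Serpinb3a and Serpinb12 (13.6% of all windows). None of the motifs overlapped another in the windows shown. The 9 genes had 12 windows in all, so counts by gene and shares of windows are not in the same unit. A match describes letters in a window, and its absence says nothing about the factor.

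Serpinb1a, the leukocyte elastase inhibitor that blocks elastase, proteinase 3 and cathepsin G of neutrophils, had the largest rise among the members. On probe set 1416318_at its signals were 709, 359 and 594 on knock-in arrays 1, 2 and 3, against 189, 224 and 147 on wild-type arrays 1, 2 and 3. All knock-in arrays lay above all wild-type arrays, and knock-in array 2 was the nearest to them. The mean was 554 ± 178 in knock-in and 187 ± 38.9 in wild-type (SD, n = 3 each), a log2 difference of 1.46 ± 0.24, or 2.74-fold (limma adjusted p = 0.00598). Only 0.915% of all probe sets had a higher difference. The second probe set, 1448301_s_at, whose suffix means that its probes can also match related transcripts, gave 96.6, 53.2 and 75.3 in knock-in against 35.0, 46.9 and 35.4 in wild-type. Its groups did not overlap either, but its difference of 0.70 ± 0.21 missed the threshold (limma adjusted p = 0.0587). Without knock-in replicate 2 it passed (adjusted p = 0.0327, in a range from 0.0216 to 0.174 over 15 alternatives).

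Serpinb2 is plasminogen activator inhibitor 2, which blocks urokinase and is made by macrophages and by stressed keratinocytes. Probe set 1419082_at had signals of 3951, 2094 and 2424 on knock-in arrays 1 to 3, against 923, 1146 and 1211 on wild-type arrays 1 to 3. Its lowest knock-in array stood well above its highest wild-type array. It averaged 2823 ± 991 in knock-in and 1093 ± 151 in wild-type (SD, n = 3 each), and the log2 difference was 1.31 ± 0.22, or 2.48-fold (limma adjusted p = 0.00637). The call held under all 18 alternatives tried, with an adjusted p of at most 0.0246.

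Serpinb3a is a mouse relative of the human squamous cell carcinoma antigens, whose SERPINB3 blocks cysteine cathepsins. Its 1437517_x_at gave dim signals, 47.1, 62.8 and 30.5 in knock-in against 17.0, 18.0 and 22.4 in wild-type. All 3 wild-type values and 1 knock-in value lay below the median probe set of their array, and those medians ran from 37.5 to 45.7. The log2 difference of 0.81 ± 0.22 passed narrowly (limma adjusted p = 0.0437). It was 1.20 with an offset of 1 in place of 16 and 0.40 with 64. The call was lost, among other settings, without knock-in replicate 1 or 2 or any 1 of the 3 wild-type replicates (adjusted p = 0.116, 0.121, 0.101, 0.106 and 0.0952), in a range from 0.0168 to 0.121 over 14 alternatives.

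The _x_at suffix of that probe set means that some of its probes are shared with other sequences, so it may also read neighbouring copies. Serpinb3b, Serpinb3c and Serpinb3d have no probe set annotated to them alone. Start-site sequence shows how alike Serpinb3a, Serpinb3b and Serpinb3c are near their starts, and Serpinb3d was not compared. It does not tell what the probes match, since probe sequences were not compared. The window of Serpinb3b is given for comparison with that of Serpinb3a above, with the TATA letters in capitals.
Serpinb3b, chr1:107161065-107161364, minus strand: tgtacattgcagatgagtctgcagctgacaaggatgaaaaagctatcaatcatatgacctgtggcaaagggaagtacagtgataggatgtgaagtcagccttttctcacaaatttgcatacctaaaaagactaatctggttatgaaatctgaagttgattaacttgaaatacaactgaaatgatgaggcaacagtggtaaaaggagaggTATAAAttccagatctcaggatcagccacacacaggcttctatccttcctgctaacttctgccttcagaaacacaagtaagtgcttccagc
Where the windows align, 257 of 276 bases (93.1%) were identical between Serpinb3a and Serpinb3b, 93.6% of 266 between Serpinb3a and Serpinb3c, and 96.2% of 290 between Serpinb3b and Serpinb3c.

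Serpinb11, an epithelial serpin whose mouse form blocks trypsin-like proteases, showed the largest fall among the members. Its only probe set, 1449451_at, had signals of 199, 244 and 210.0 on knock-in arrays 1 to 3, against 468, 598 and 575 on wild-type arrays 1 to 3. The groups lay far apart, and both were tight. The mean was 218 ± 23.6 in knock-in and 547 ± 69.6 in wild-type (SD, n = 3 each), a log2 difference of -1.27 ± 0.12 (limma adjusted p = 0.000552). Only 1.01% of all probe sets had a lower difference. It passed under all 18 alternatives, with an adjusted p of at most 0.00545.

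Serpinb5, or maspin, is a serpin of epithelial cells that is not known to inhibit proteases and is studied in adhesion and tumour suppression. It fell on 3 of its 4 probe sets. The _x_at suffix of 1438856_x_at and 1441941_x_at means that some of their probes are shared with other sequences. On 1438856_x_at the signals were 1141, 1285 and 1105 in knock-in against 1701, 1644 and 1901 in wild-type, a log2 difference of -0.57 ± 0.10 (limma adjusted p = 0.00673). On 1441941_x_at they were 798, 845 and 631 in knock-in against 1088, 1268 and 1462 in wild-type, a difference of -0.73 ± 0.14 (limma adjusted p = 0.0111). On both, all knock-in arrays lay below all wild-type arrays. On 1424623_at, signals of 1148, 1322 and 1205 in knock-in against 1636, 1580 and 1601 in wild-type gave -0.39 ± 0.08 (limma adjusted p = 0.0184). This last call was lost, among other settings, without knock-in replicate 1 or 3 or wild-type replicate 3 (adjusted p = 0.0647, 0.0701 and 0.0648), without a mean-variance trend (0.0615) and with median centring (0.129), in a range from 0.00816 to 0.129 over 17 alternatives.

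The fourth Serpinb5 probe set did not fall. On 1421752_a_at the signals were 2865, 3139 and 2572 in knock-in against 3068, 2467 and 2715 in wild-type. These overlap fully, and the log2 difference was 0.06 ± 0.11 (limma adjusted p = 0.801, 95% interval from -0.20 to 0.32). The _a_at suffix marks a probe set that reads alternative transcripts of 1 gene. Within an array, the log2 ratio of 1421752_a_at over 1441941_x_at averaged 1.90 in knock-in and 1.11 in wild-type, and the ratios did not overlap between the groups. The difference of 0.79 had a two-sided exact permutation p of 0.1, the smallest that 3 arrays against 3 allow, and 0.167 when adjusted over 10 such pairs of probe sets. Both other probe sets that fell showed the same with 1421752_a_at. With so few arrays these tests could not pass a threshold of 0.05.

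**Figure D2:**
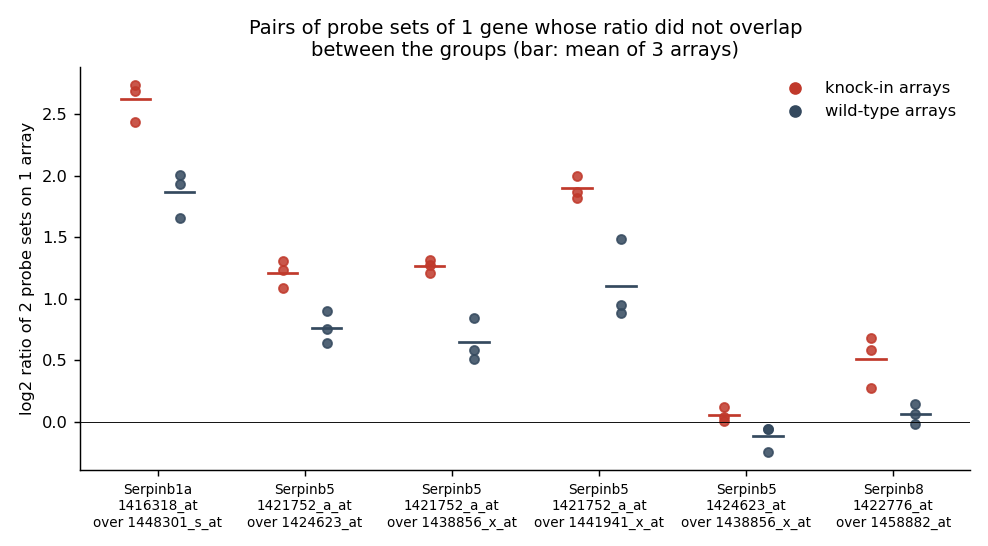
The log2 ratio of 2 probe sets of 1 gene on 1 array is plotted for the 6 of 10 pairs whose ratios did not overlap between the groups, with knock-in arrays left of wild-type arrays and a bar at the mean of 3 arrays. The 3 pairs of Serpinb5 that involve 1421752_a_at have mean ratios from 1.21 to 1.90 in knock-in and from 0.65 to 1.11 in wild-type. The pairs shown were chosen for this outcome. How often such ratios do not overlap among other genes was not computed, so 6 of 10 has no background to be read against.

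Serpinb8, whose human form inhibits the proprotein convertase furin, fell on 1 of 2 probe sets. On 1458882_at the signals were 282, 233 and 257 on knock-in arrays 1 to 3, against 391, 438 and 398 on wild-type arrays 1 to 3, without overlap. The log2 difference was -0.64 ± 0.10 (limma adjusted p = 0.00494), and it passed under all 17 alternatives. On 1422776_at the signals were 460.4, 285 and 391 in knock-in against 385, 485 and 417 in wild-type. These overlapped, with a difference of -0.19 ± 0.17 (limma adjusted p = 0.519, 95% interval from -0.57 to 0.19). The ratio of both probe sets on 1 array did not overlap between the groups (difference of 0.45, exact permutation p = 0.1).

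Serpinb6a, an intracellular inhibitor of cathepsin G and other serine proteases, stood just outside the threshold. Its 1450138_a_at had signals of 4491, 3527 and 4126 on knock-in arrays 1 to 3, against 2431, 3455 and 2688 on wild-type arrays 1 to 3. The groups did not overlap, although knock-in array 2 and wild-type array 2 nearly met. The mean was 4048 ± 487 in knock-in and 2858 ± 533 in wild-type (SD, n = 3 each), a log2 difference of 0.51 ± 0.15 (limma adjusted p = 0.0539). Without wild-type replicate 2 it passed (adjusted p = 0.0208), and it passed under 8 of 18 alternatives in all, in a range from 0.0133 to 0.168.

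The remaining members did not pass the threshold, and their groups overlapped. Serpinb9, the granzyme B inhibitor that protects cytotoxic lymphocytes and dendritic cells, had signals of 78.6, 77.0 and 94.8 in knock-in against 35.5, 87.5 and 75.1 in wild-type on 1422601_at. Its difference was 0.33 ± 0.25 (limma adjusted p = 0.446, 95% interval from -0.24 to 0.91), and without the low wild-type replicate 1 it was 0.030. The second Serpinb9 probe set, 1439790_at, was below the array median on every array, at 18.4 to 34.4 in knock-in and 8.87 to 34.3 in wild-type. Serpinb6b, a paralog of Serpinb6a, was also below the median throughout, at 22.7 to 32.0 in knock-in and 17.9 to 27.1 in wild-type (log2 difference of 0.21 ± 0.18, limma adjusted p = 0.504). Serpinb12, whose human form blocks trypsin and plasmin, had 214, 153 and 156 in knock-in against 240.2, 170 and 70.3 in wild-type on 1429297_at. The wide wild-type spread gave 0.23 ± 0.35 (limma adjusted p = 0.723, 95% interval from -0.56 to 1.03). Its other probe set, 1432173_at, stayed between 11.1 and 21.2 in knock-in and between 12.9 and 21.9 in wild-type.

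The knock-in arrays differed among themselves in the same order for several members. On Serpinb1a, Serpinb2 and Serpinb6a, knock-in array 1 was the highest and knock-in array 2 the lowest. The same order held on both probe sets of Serpinb8, 1 of which fell, and on Serpinb6b, Serpinb9 1439790_at and Serpinb12 1429297_at, which did not pass. Macrophage markers were split. Cd14 had its highest and lowest values on the same arrays, with 3473, 1923 and 3224 on knock-in arrays 1 to 3, against 113 to 176 in wild-type. Itgam and Lyz2 shared that order. Cd68, Adgre1, Csf1r, Ccr2 and Ms4a7 did not, since knock-in array 3 was their highest. The share of all probe sets with this order was not computed, and a common source was not tested. Serpinb3a did not follow the order, since knock-in array 2 was its highest. Serpinb11 ran the other way, with its highest knock-in signal on array 2. Every Serpinb5 probe set was also highest there among the knock-in arrays.

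**Figure D3:**
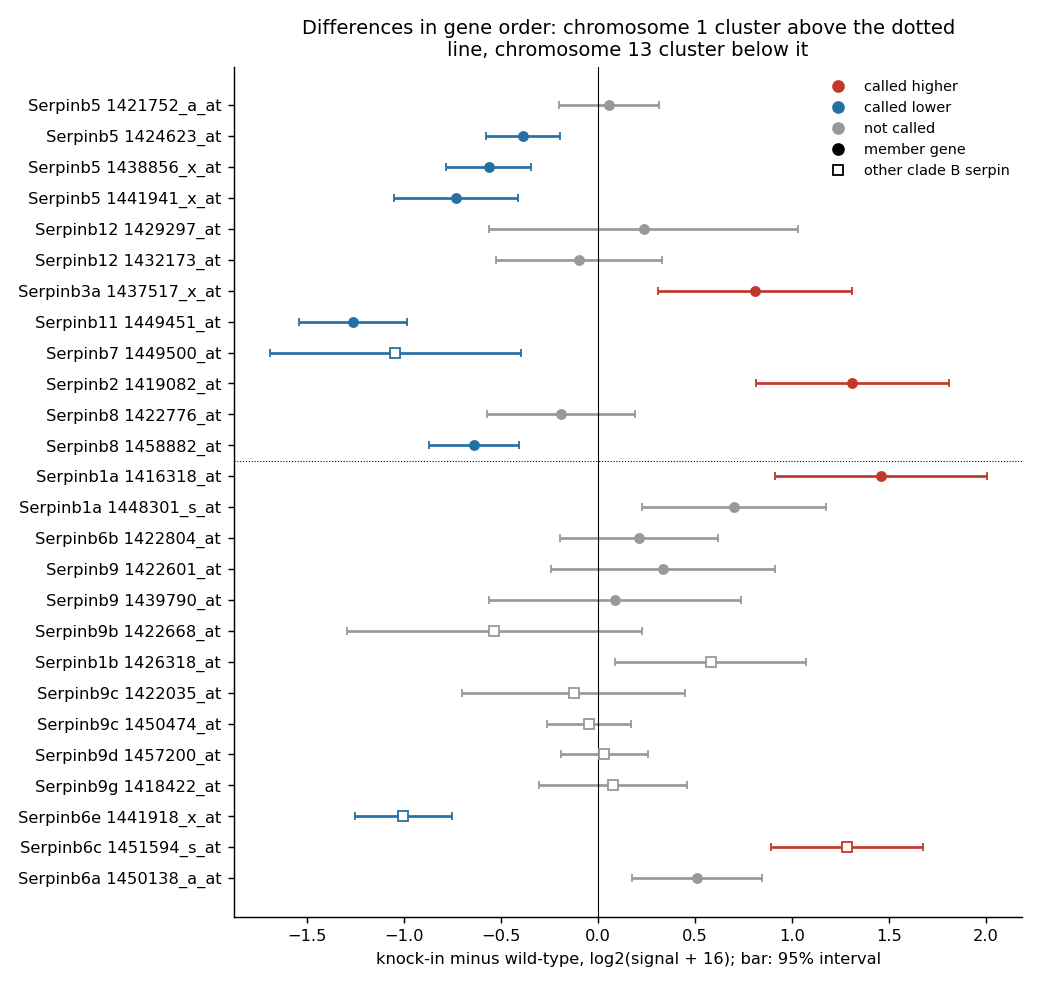
Log2 differences, knock-in minus wild-type, are shown with 95% intervals for all 26 clade B serpin probe sets with 1 annotated symbol, in the order of their genes along chromosomes 1 and 13. Red marks probe sets that rose, blue those that fell and grey those that did not pass, and neighbours such as Serpinb7 (-1.05) and Serpinb2 (1.31) differ in sign.

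In mouse the clade B serpins lie in one cluster on chromosome 1 and another on chromosome 13, with 12 and 16 protein-coding genes in the RefSeq table of GRCm38.p6. Both clusters held genes that rose beside genes that fell. On chromosome 1, Serpinb11 (-1.27) and Serpinb7 (-1.05) are followed directly by Serpinb2 (1.31). On chromosome 13, Serpinb6e (-1.004) is followed by Serpinb6c (1.28) and Serpinb6a (0.51, not past the threshold).

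Of 17 further clade B serpins on a list, 8 had a probe set of their own, of which 1 rose, 2 fell and 5 did not pass. Serpinb6c (1451594_s_at) rose, with 282, 224 and 212 in knock-in against 80.8, 115 and 73.3 in wild-type (1.28 ± 0.17, limma adjusted p = 0.00247). Serpinb6e (1441918_x_at) fell, with 191, 166 and 188 in knock-in against 354, 432 and 359 in wild-type (-1.004 ± 0.11, limma adjusted p = 0.00100). Both suffixes allow probes to match related transcripts, so these near copies cannot be separated with certainty. Serpinb7, whose human form is mutated in a palmoplantar keratosis, had 739, 308 and 458 in knock-in against 791, 1245 and 988 in wild-type. Its fall of -1.05 ± 0.28 (limma adjusted p = 0.0435) was lost without knock-in replicate 2 or 3 or wild-type replicate 2 or 3, with an adjusted p of up to 0.130. The other 5 genes, Serpinb1b, Serpinb9b, Serpinb9c, Serpinb9d and Serpinb9g, were below the array median on every array. Over the 18 genes of both lists, 4 had a probe set that rose, 5 one that fell and 9 none that passed, where 1864 and 2170 of all 18193 genes had one that rose or fell.

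The proteases that these inhibitors are known to meet were read from the same fit, with the brightest probe set standing for each gene. Of 5 measured genes of plasminogen activation, the process that Serpinb2 restrains, 2 rose and 0 fell. Plaur, the urokinase receptor, had 742, 500.1 and 591 in knock-in against 76.2, 84.9 and 61.2 in wild-type (2.79 ± 0.16, limma adjusted p = 4.60e-05). Plat, the tissue-type activator, rose by 0.96 ± 0.18 (limma adjusted p = 0.0110), a call lost without wild-type replicate 3 (up to 0.0520). Urokinase itself, Plau, was dim in both groups, at 16.8 ± 2.69 in knock-in and 14.3 ± 11.5 in wild-type (SD, n = 3 each). The difference in Plau was 0.18 ± 0.27 (limma adjusted p = 0.724).

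The RNA signals of the neutrophil serine proteases that Serpinb1a blocks were dim in both groups. The proteins, which a cell can hold in store, were not measured. Elane, Ctsg and Prtn3 had mean signals of 9.34, 4.73 and 24.6 in knock-in and 9.45, 10.3 and 39.0 in wild-type, all under the array medians, and 0 of 3 passed (limma adjusted p from 0.320 to 0.995, with 0 of 3 at an unadjusted p under 0.05). Granzymes, the family of the Serpinb9 target granzyme B, passed in 0 of 10, and 9 of the 10 had means under the array medians in both groups. At an unadjusted p under 0.05 there was 1, Gzmc, with a log2 difference of -0.81 ± 0.31 (limma adjusted p = 0.135).

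Of 10 cysteine cathepsins, a class that human SERPINB3 blocks, 3 rose, 2 fell and 5 did not pass. Ctss, the cathepsin of antigen-presenting cells, averaged 2647 ± 592 in knock-in and 1292 ± 279 in wild-type (SD, n = 3 each; 1.02 ± 0.19, limma adjusted p = 0.0111). Ctsk, a collagen-degrading cathepsin, averaged 1875 ± 109.7 in knock-in and 3467 ± 959.5 in wild-type (-0.85 ± 0.18, limma adjusted p = 0.0164). Ctsw of cytotoxic lymphocytes lay below the array medians in knock-in and above them in wild-type, at 16.3, 36.5 and 26.1 in knock-in against 51.2, 63.3 and 73.8 in wild-type, and fell too (-0.92 ± 0.22, limma adjusted p = 0.0277). Each of the 5 cathepsin calls was lost without at least 1 array, wild-type replicate 3 and knock-in replicate 3 among them in every case, and with an array left out 0 to 2 rose and 0 to 3 fell.

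Of 12 kallikreins and other epidermal serine proteases, 3 rose, 2 fell and 7 did not pass (2 to 4 and 1 to 2 with an array left out). Klk6, a kallikrein of differentiating and inflamed epithelia, averaged 1706 ± 154 in knock-in and 471 ± 90.5 in wild-type (SD, n = 3 each; 1.84 ± 0.14, limma adjusted p = 0.000173). Klk13 rose by 1.63 ± 0.33 (limma adjusted p = 0.0148), and St14, the membrane protease matriptase, fell (-0.98 ± 0.15, limma adjusted p = 0.00463). Among 4 proprotein convertases 1 passed: Pcsk5 averaged 1355 ± 333 in knock-in and 174 ± 12.1 in wild-type (2.82 ± 0.17, limma adjusted p = 6.01e-05). Furin, the target of human SERPINB8, had a difference of 0.20 ± 0.11 (limma adjusted p = 0.309).

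**Figure D4:**
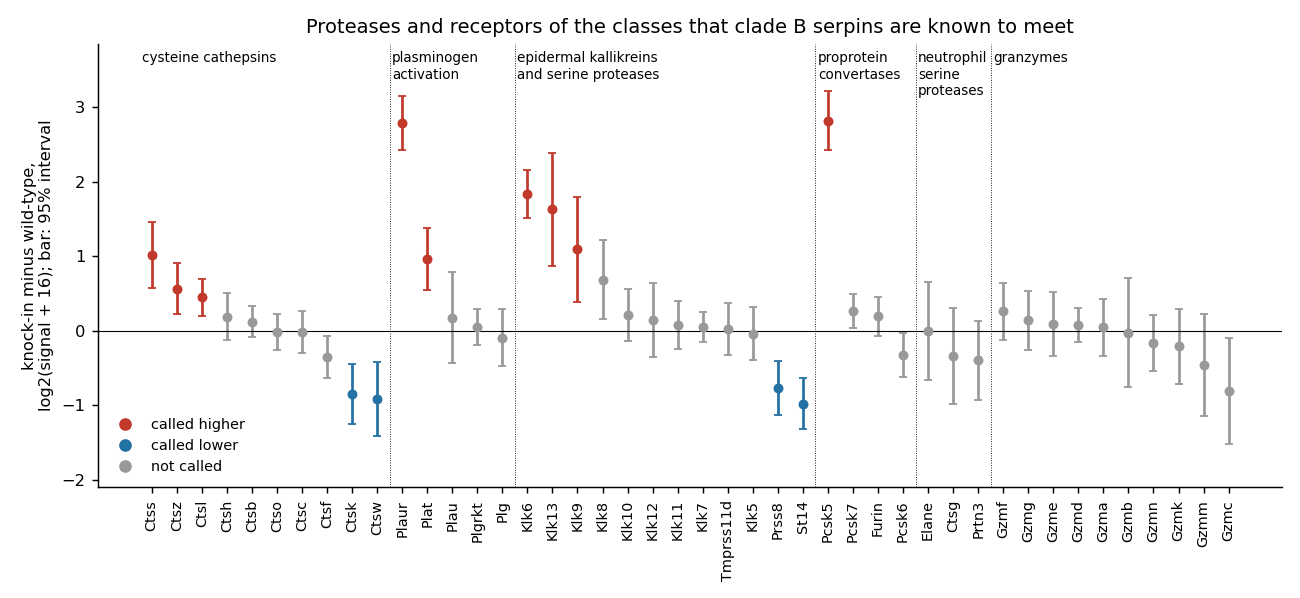
Log2 differences, knock-in minus wild-type, with 95% intervals are shown for each measured protease or receptor on 6 lists, sorted within a list, in red where they rose, blue where they fell and grey where they did not pass. Plaur (2.79) and Pcsk5 (2.82) stand highest, and the neutrophil serine proteases and granzymes are grey throughout.

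Serpins of other clades were also read: of 17 measured, 2 rose, 2 fell and 13 did not pass. Serpina3n, a secreted inhibitor of the acute-phase response, had 3315, 2397 and 3871 in knock-in against 245, 320.2 and 293 in wild-type (3.39 ± 0.17, limma adjusted p = 2.26e-05). Serpind1 (-0.92 ± 0.24, limma adjusted p = 0.0362) and Serpina12 (-0.82 ± 0.22, limma adjusted p = 0.0400) fell, and both calls were lost in 5 of 6 cases with an array left out (all but knock-in replicate 1). Serpind1 was dim, with 20.6, 4.91 and 15.2 in knock-in against 47.3, 37.7 and 32.0 in wild-type, and its difference ran from -1.63 to -0.41 over the alternatives. The other rise, Serpinf1 (0.50 ± 0.13, limma adjusted p = 0.0401), was also lost in 5 of 6 such cases (all but wild-type replicate 2).

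Whole skin mixes cell types, and in such bulk RNA a change in the number of cells of a type cannot be told from a change in RNA per cell. Of 8 neutrophil markers 7 rose, and their summed signal was 14530 to 18750 in knock-in against 551 to 823 in wild-type. S100a8 and S100a9, which stressed keratinocytes also make, account for most of that sum, and the neutrophil receptor Csf3r had 140.0 to 252 in knock-in against 27.1 to 32.9 in wild-type. Of 8 macrophage markers 3 rose (9339 to 14364 in knock-in, 5618 to 8196 in wild-type), and 2 to 4 with an array left out. Cd14 and Lyz2 carry most of the difference in that sum, and the Lyz2 call was lost in 4 of 6 such cases. The markers Adgre1 (0.14), Csf1r (0.07), Ms4a7 (0.04) and Ccr2 (-0.36) did not pass. Of 6 mast cell markers 3 rose (2403 to 3004 and 968 to 1382). Of 7 T and NK cell markers 3 fell (99.4 to 160.0 in knock-in, 274 to 325 in wild-type), and 2 to 3 with an array left out. The Nkg7 call was lost in 4 of 6 such cases. These markers were dim: Cd3g, Cd3d and Nkg7 lay below the array median on every knock-in array. Another 3 of the 7 had means under the array medians in both groups. Basal keratinocyte markers rose in 3 of 6 (21945 to 26080 in knock-in, 15775 to 16446 in wild-type), while suprabasal markers overlapped in sum, with Dsg1a and Dsc1 lower. Hair follicle markers fell in 5 of 5 (10174 to 17473 in knock-in, 26136 to 31913 in wild-type). With an array left out 3 to 5 fell: Krt71 was lost without wild-type replicate 3, and Krt25 without that array or knock-in replicate 3. Skeletal muscle markers fell in 3 of 5 (15497 to 24264 in knock-in, 27165 to 42654 in wild-type), and in 2 to 4 with an array left out. The part of these shifts in the serpin differences was not tested.

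Xist, the RNA of the inactive X chromosome, had 3442 to 4005 in knock-in against 27.8 to 32.5 in wild-type, and Eif2s3y of the Y chromosome 4.43 to 5.45 against 639 to 721. Sex and genotype therefore cannot be told apart in any value above. All member genes lie on autosomes. Keratin signals (Krt14 at 10382 ± 1237 in knock-in and 6250 ± 318 in wild-type, SD, n = 3 each) were high in both groups, as the label skin requires. Pearson's r across probe sets, which are not independent replicates, was 0.983 to 0.984 within knock-in, 0.981 to 0.984 within wild-type and 0.949 to 0.963 between the groups.

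A set of 5 genes lay closest to Serpinb11, the member with the smallest adjusted p, by Euclidean distance of centred log2 values over the 6 arrays. They were Flrt2 (distance 0.185, log2 difference -1.23), Adcy1 (0.217, -1.17), Scn4b (0.226, -1.26), Ciita (0.236, -1.18) and Fndc1 (0.241, -1.15). These are a cell adhesion protein, an adenylyl cyclase, a sodium channel subunit, the regulator of MHC class II genes and a fibronectin-domain protein. All 5 were lower in knock-in skin, and the distance is taken over arrays that also define that difference.

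**Figure D5:**
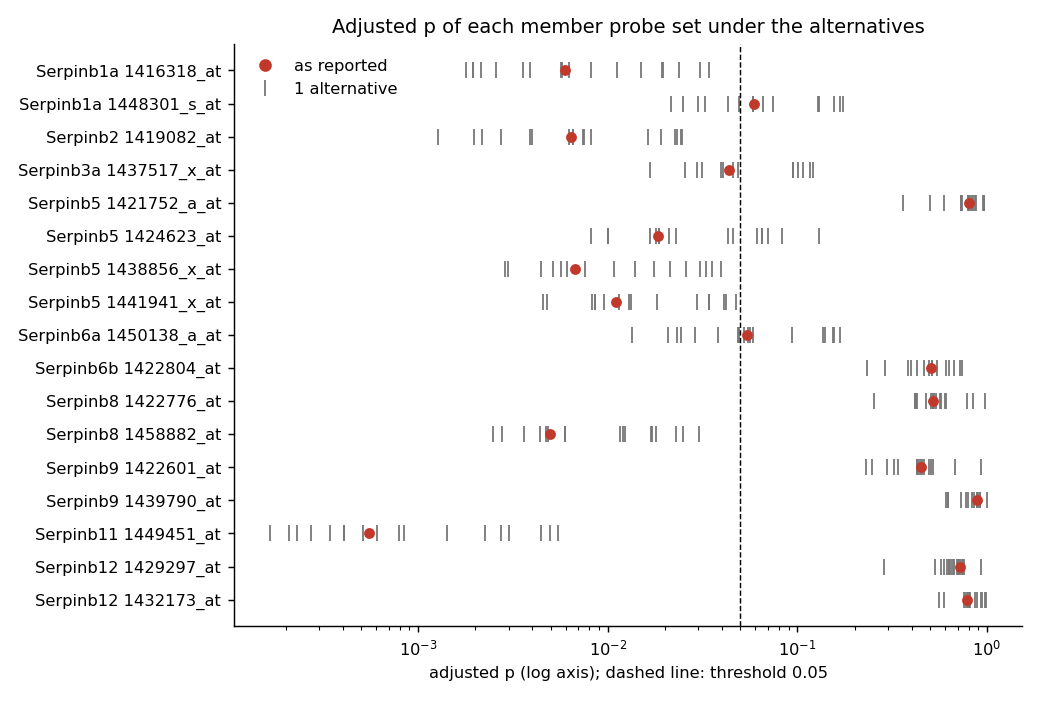
The adjusted p (log axis) of each member probe set is plotted as reported (red point) and under each alternative (grey ticks), with the threshold of 0.05 as a dashed line. Serpinb2, Serpinb11 and 1 probe set each of Serpinb1a and Serpinb8 stay left of the line, Serpinb3a, Serpinb6a, Serpinb5 1424623_at and Serpinb1a 1448301_s_at fall on both sides, and 2 Serpinb5 probe sets stay left of it.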

How the data were processed

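Skin RNA, 1 array per sample, was deposited as linear signal intensity values per probe set, made by the authors with MAS5 per the submitters' processing notes, which name no version. The 2% trimmed mean of the deposited intensity was 150.0 on every array, so nothing further was normalized. The table has no detection calls, and the small number of arrays limits precision. Of 45101 probe sets, 64 controls were left out, and 34945 of the rest had 1 gene symbol, 932 several and 9160 none.

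The test was made on log2(signal + 16) by limma 3.58.1 under R 4.3.3 (lmFit, eBayes with a mean-variance trend, two-sided) on all 45037 probe sets without a filter on dim ones, so that no member entered through the group in which it was high. The offset understates changes of signals near 16. Pairs of probe sets were compared by exact permutation tests (Python 3.11.15, SciPy 1.17.1). Simulated arrays of 45037 probe sets for knock-in against wild-type had the residual spread seen here. Changes were placed in 50 probe sets of each size, all above the median. Recovered were 16% of log2 changes of 0.5, 58% of 1, 90% of 2 and 100% of 4, with 4 false calls among 136. In the data 6224 probe sets passed, far more than were changed there. The cutoff after adjustment therefore differs, and these rates need not hold for the data. Named were all members, all measured clade B serpins, up to 3 genes of smallest unadjusted p from each other list, and the 5 genes most like the member of smallest adjusted p. Csf3r, Furin, Serpinf1, Cd68, Adgre1, Csf1r, Ms4a7, Ccr2, Krt71 and Krt25 fall outside this rule and were chosen after their values were seen. Alternatives changed the offset, filter, level of the fit, normalization, variance prior, array weights, shared probe sets and replicate block, or left out an array. Members and lists were chosen with earlier results of these data known. Symbols of all 10 members matched the RefSeq table by gene ID. Some genes on the lists were not analysed here.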

Additional observations from a re-analysis of the deposited data

How the results depend on the processing

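Each of 283 values of a member probe set under an alternative was compared with the reported one: 249 kept direction and side of the threshold, 14 newly passed, 12 no longer passed and 8 changed sign, all of probe sets that had not passed. The sign changes were Serpinb5 1421752_a_at with quantile normalization (-0.013) or an array left out (-0.018 to 0.14), Serpinb9 1439790_at (-0.21 to 0.29) and Serpinb12 1429297_at (-0.21 to 0.57) with an array left out, and Serpinb12 1432173_at with median centring (0.032) or an array left out (-0.22 to 0.0075). Member probe sets that rose numbered 5 in place of 3 with an offset of 1, quantile normalization, median centring and a robust prior, which each added Serpinb1a 1448301_s_at and Serpinb6a. With 1 probe set per gene after a filter on dim ones, 4 of 8 members passed, 1 of them lower. Of all 11683 genes in that fit 3637 passed, 1730 higher and 1907 lower. Without _s_at and _x_at probe sets 5 members passed, 3 of them lower, since fewer were tested. With an array left out, 6 to 8 members passed, 2 to 3 higher and 4 to 5 lower, and over all probe sets 3169 to 5139 passed, 1561 to 2303 higher and 1608 to 2836 lower, against 6224 (2705 and 3519). With median centring the median log2 difference of all probe sets was 0.09 in place of -0.05, and 66.2% of calls were higher (4103, with 2097 lower) in place of 43.5%. Knock-in and wild-type replicates share only numbers: deviations of same-numbered arrays correlated at -0.13, -0.15 and -0.01, and 0 of 3 knock-in arrays correlated best with their own number. With the replicate block 3406 probe sets passed (1612 higher, 1794 lower), 6 of them members, and Serpinb3a (adjusted p = 0.0952) and Serpinb5 1424623_at (0.0826) did not. The causes were not tested. Without detection calls, dim probe sets such as those of Serpinb6b cannot be called absent.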
